A study of Mus musculus with 21 samples.

Results

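The genes of the cytosolic ribosomal proteins were followed in mouse embryonic stem cells that had lost Trim71, had lost Ago2 or expressed a peptide inhibitor of microRNA silencing. They were taken by symbol from the table of 22512 genes, as every Rpl or Rps symbol made of a number with an optional a or x, together with Rplp0, Rplp1, Rplp2 and Rpsa. This rule gave 76 genes on 19 chromosomes: 30 encode proteins of the small 40S subunit, 43 encode proteins of the large 60S subunit outside the acidic stalk, and 3 (Rplp0, Rplp1 and Rplp2) encode the acidic stalk of the large subunit. Rps3a1, Fau and Rack1, whose products also sit in the ribosome, fall outside the naming rule and are described further on.

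All 21 total RNA libraries came from 129S6/SvEvTac embryonic stem cells that carried yGlob [GFP_5xT71BS] and a stably transfected FLAG-Cas9::T2A::Blasticidin and were grown on gelatin with LIF, with 3 biological replicates in each of 7 groups. The p-values below measure the spread between these replicates. Experiment 1 held the parental line (W), Trim71-/- cells (Trim71KO) and Ago2-/- cells (Ago2KO). In Experiment 2 parental cells received a pCIP plasmid for FH-T6B_WT::mCherry (T6B_WT) or FH-T6B_MUT::mCherry (T6B_MUT), and the Trim71-/- and Ago2-/- cells received an empty plasmid (Trim71KO_empty and Ago2KO_empty). T6B is a peptide of the GW182 protein TNRC6B that binds Argonaute proteins, and the mutant form is the control here. The edited lines of Experiment 2 therefore differed from T6B_MUT in genotype and plasmid at the same time. Whether each edited line was 1 clone is not given in the sources used here.

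Each ribosome holds 1 copy of most of these proteins, so that their genes are transcribed at high and coordinated levels. Their mRNAs begin with a run of pyrimidines, the 5′ terminal oligopyrimidine (TOP) motif, through which mTOR and LARP1 set their translation and stability. Argonaute proteins, of which AGO2 is one, use microRNAs to find mRNAs and recruit GW182 proteins to silence them. TRIM71 is an RNA-binding protein of early development that represses selected mRNAs. Many ribosomal protein genes also hold small nucleolar RNAs in their introns and have many processed pseudogenes.

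A pyrimidine run near the annotated start was more frequent in the promoter windows of these genes than in those of other genes, as a description with no test. RefSeq promoter windows (GRCm38.p6, 250 bases before to 50 bases after an annotated start) were at hand for 56 of the 76 genes, as 66 windows. A run of at least 10 pyrimidines (C or T) on the gene's own strand, within 50 bases of the start on either side, was found in 47 of the 66 windows (71.2%), against 18.0% of 32785 windows of other genes. The same search on the opposite strand found 10.6% of the windows of the ribosomal protein genes and 19.0% of the others. The annotated start itself was a C followed by 4 pyrimidines in 19.7% and 2.5%. The letters CCGGAAGT, searched on both strands of the whole window, stood in 16.7% and 3.9%, AAGATGGC in 10.6% and 2.7%, and TATAAA in 9.1% and 13.6%. Windows of 1 gene overlap where it has several annotated starts, and a match describes letters only. The 30 bases around the longest pyrimidine run are shown for 6 genes on which the results below turn and for Rps6, as an example of a run that spans the start, as in Rpl7a. The run is in capitals:
Rps12, chr10:23787182-23787211, minus strand: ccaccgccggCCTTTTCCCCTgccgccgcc
Rplp0, chr5:115559466-115559495, plus strand: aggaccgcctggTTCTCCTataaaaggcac
Rps2, chr17:24720083-24720112, plus strand: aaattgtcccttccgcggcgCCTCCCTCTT
Rpl37a, chr1:72711274-72711303, plus strand: cgcattgcgTCCCTTCCTCTTCggacttgg
Rpl13a, chr7:45128722-45128751, minus strand: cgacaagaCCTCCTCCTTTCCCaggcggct
Rpl7a, chr2:26910788-26910817, plus strand: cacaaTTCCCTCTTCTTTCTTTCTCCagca
Rps6, chr4:86857349-86857378, minus strand: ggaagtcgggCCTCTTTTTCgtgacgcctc
The run in Rps12 is 11 bases long and begins at base 9 after the start, counted from 1 at the start. In Rplp0 the longest run has 7 bases, and its last base begins the letters TATAAA. In Rps2 it has 10 bases, begins at base 41 and ends at the edge of the window. The run of Rpl7a, with 21 bases, is the longest of those shown.

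Every one of the 76 genes was expressed in every library, and the lowest count of any of them was 767. In the authors' RPKM (reads scaled to gene length and library size), the mean over the 7 groups ran from 27.0 for Rpl29 to 1282 for Rpl4, with a median of 248.3. Rpl4, Rplp1 and Rpl8 stood highest, at 1282, 1210 and 1185 RPKM, and Rpl4 had 1226 ± 24.3 RPKM (SD, n = 3) in W and 1447 ± 53.2 in T6B_WT. Rpl29, Rpl34 and Rpl35a stood lowest, at 27.0, 38.4 and 44.7 RPKM. The deposited length joins all annotated exons of a gene, so that Rpl35a was divided by 3526 bases where its representative transcript has 519, and Rplp1 by 499 bases in both. The order by RPKM is thus an order per deposited length. The median was 276.6 RPKM for the 40S genes and 232.9 for the 60S genes. For the typical gene the highest group mean was 1.254 times the lowest, and the ratio reached 2.322 at most, which is narrow beside the spread between genes.

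**Figure D1:**
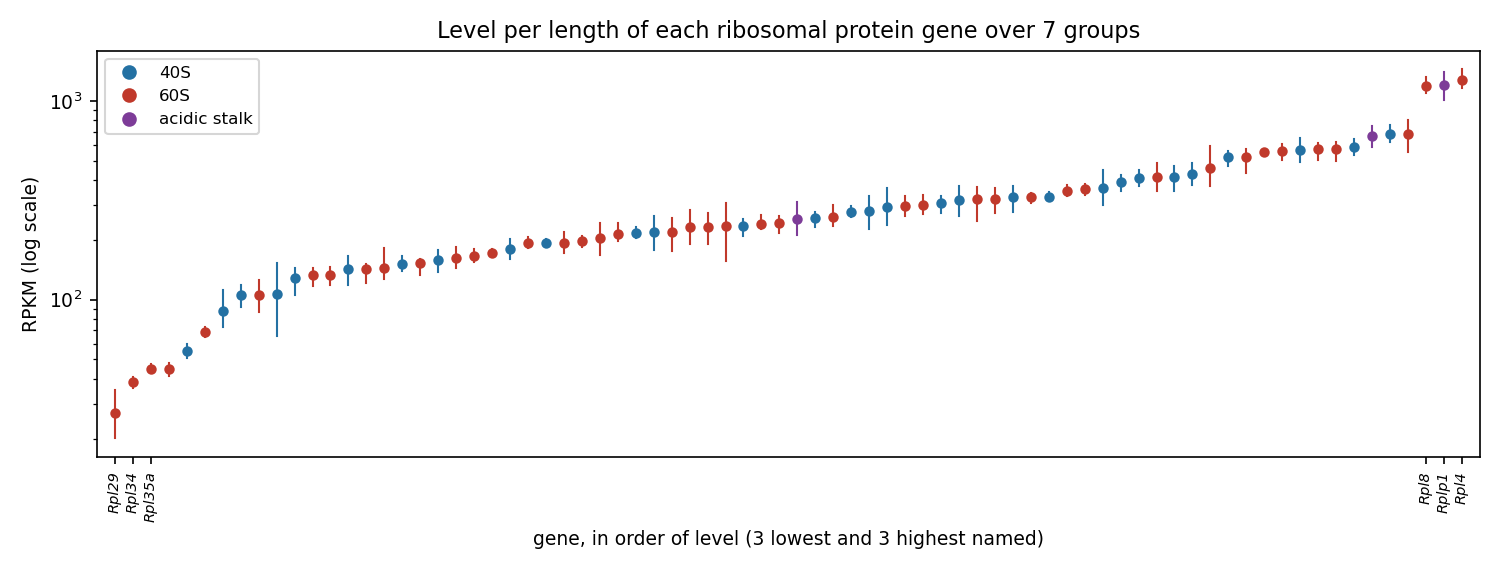
Mean RPKM of each of the 76 ribosomal protein genes over the 7 groups (points, log scale), in order of level, with a line from the lowest to the highest group mean, coloured by subunit. The genes span 27.0 to 1282 RPKM, while most lines are short, with a median ratio of 1.254 between the highest and lowest group.

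Together the 76 genes took 3.81% to 4.81% of all counts. The share was 4.28% ± 0.0790 (SD, n = 3) in W, 4.19% ± 0.153 in Trim71KO and 4.04% ± 0.130 in Ago2KO. In Experiment 2 it was 4.68% ± 0.0397 in T6B_MUT, 4.52% ± 0.196 in T6B_WT, 4.44% ± 0.0441 in Trim71KO_empty and 4.30% ± 0.501 in the libraries labelled Ago2KO_empty (n = 3 each). The lowest and the highest share of all 21 libraries both came from this last group, 3.81% in its replicate 2 and 4.81% in its replicate 3. In Ago2KO the shares of 4.02%, 3.92% and 4.18% all lay below the 4.21%, 4.25% and 4.36% of W, and the 3 shares of Trim71KO_empty all lay below those of T6B_MUT. This separation was lost when the share was taken of the counts of genes within the members' length range only. Ago2KO then had 6.24%, 6.12% and 6.44% and W had 6.52%, 6.434% and 6.59%, with Ago2KO replicate 3 above W replicate 2. Trim71KO_empty had 7.333%, 7.15% and 7.23%, with its replicate 1 above the 7.326%, 7.302% and 7.295% of T6B_MUT. In bulk RNA such as this, fewer cells with a given level and less RNA per cell cannot be told apart. The ratio of 60S counts, here with the 3 genes of the acidic stalk, to 40S counts ran from 1.581 to 1.647 over the libraries of Experiment 1 and from 1.548 to 1.64 over those of Experiment 2.

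**Figure D2:**
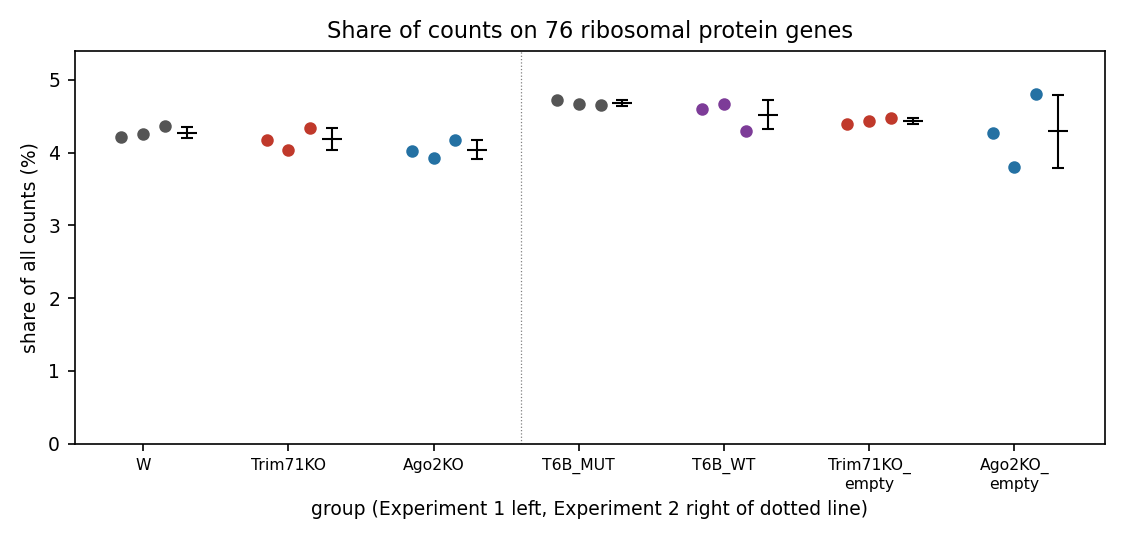
Share of all counts assigned to the 76 ribosomal protein genes in each library (points, in %), with the mean and SD of each group (bars, n = 3). The 3 Ago2KO libraries lie below the 3 W libraries, which does not hold for the share of counts of genes in the members' length range, and the libraries labelled Ago2KO_empty spread from 3.81% to 4.81%.

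The libraries held 29561125 to 57872324 counts, and no pair of replicates agreed within counting noise (chi-square per degree of freedom 3.74 to 86.4 over 21 pairs). All 10 stem cell markers were above 1 CPM (counts scaled to library size, with TMM, the trimmed mean of M-values) in every group, with library sums of 5853 to 6188 CPM in Trim71KO and 4813 to 5051 CPM in W. Of 6 primitive endoderm markers 2 passed 1 CPM in every group (sums of 36.0 to 38.7 CPM in W, 5.83 to 5.97 in Trim71KO and 9.79 to 11.4 in Ago2KO), of 6 markers of 2-cell-like cells none did (72.8 to 74.3 CPM in T6B_WT, 15.1 to 16.4 in T6B_MUT and 53.2 to 63.1 in the libraries labelled Ago2KO_empty), and of the 3 tabulated feeder fibroblast markers, 1 did (sums of 2.73 to 11.7 CPM). The part of these other cell states in the results below was not tested. Trim71, at 602 to 618 CPM in W, was at 412 to 459 CPM in Trim71KO and 393 to 409 CPM in Trim71KO_empty, against 482 to 503 CPM in T6B_MUT. Ago2 was at 134 to 153 CPM in W and 39.8 to 43.6 CPM in Ago2KO. It did not separate the libraries labelled Ago2KO_empty, which had 87.4, 166.6 and 45.6 CPM, from T6B_MUT, which had 113.4, 142.9 and 111.6 CPM. Results for that group are therefore given for libraries as labelled.

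Differences between groups were small for these genes and were estimated precisely. Calls rest on edgeR's quasi-likelihood test, fitted over all genes of an experiment, and an adjusted p under 0.05. In Trim71KO against W the ribosomal protein genes had a median standard error of 0.053 on the log2 scale, and all genes tested one of 0.11. The median half-width of their 95% intervals was 0.113 in Experiment 1 and 0.160 in Experiment 2 (T6B_WT against T6B_MUT). In Ago2KO against W the whole interval lay within 0.5 of 0 on the log2 scale for 69 of the 76 genes, and in T6B_WT against T6B_MUT for 75. For all 76 genes it lay within 1 of 0 in each comparison. Of the 76, 21 genes were called in at least 1 of the 5 comparisons with a control, 5 in at least 2, and 55 in none. The same count was not made over all genes, of which 16.0% to 32.6% were called in each of the 5 comparisons. The comparisons within an experiment share their control libraries, so that recurrence among them is no independent support.

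**Figure D3:**
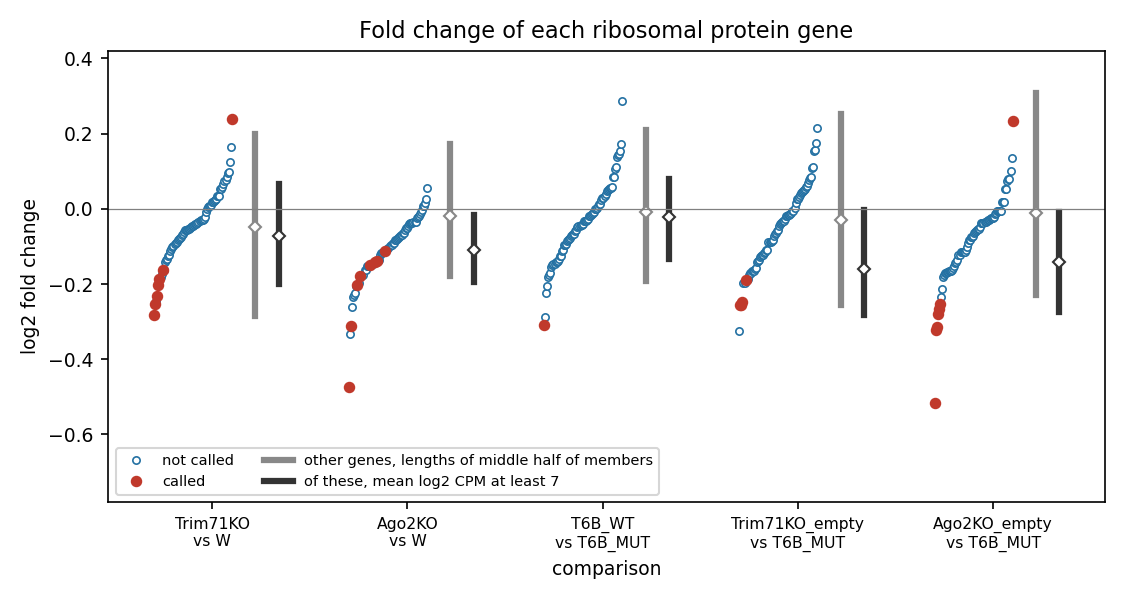
Log2 fold change of each of the 76 ribosomal protein genes (circles, ordered within a comparison; filled where called) in the 5 comparisons with a control, beside the quartile range (bar) and median (diamond) of other genes of similar length, and of the highly expressed ones among these. The circles cluster near 0, with medians of −0.05, −0.11, −0.04, −0.05 and −0.07 from left to right, and most filled circles lie below 0.

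In Trim71KO against W, which asks what changes when TRIM71 is lost, 6 ribosomal protein genes fell and 1 rose. Over all genes tested, 32.6% were called. Among other genes whose length lay between the quartiles of the members' lengths (1351 to 2691 bases) 31.4% were called, and 39.6% of the highly expressed ones among these, whose log2 CPM averaged 7 or more. The 7 of 76 (9.21%) is below each of these shares. Rpl13a, whose protein is known as a part of an interferon-induced translational silencing complex, had 1039, 1099 and 1179 CPM in W and 883, 822 and 1021 CPM in Trim71KO. All 3 knockout values lay below all 3 of W, a lack of overlap found in 44.3% of all genes tested, and the log2 level fell by 0.28 (SE 0.08; edgeR quasi-likelihood, adjusted p 0.0209). Rps12 (ENSMUSG00000061983, chr10:23785183-23787275, GRCm38) encodes a 40S protein with a known part in cell competition. It had 476, 495 and 513 CPM in W and 402, 394 and 448 CPM in Trim71KO, again with no overlap, and fell by 0.25 (SE 0.05, adjusted p 0.00175, edgeR quasi-likelihood). Rps21, Rpl7a and Rpl24 fell by 0.20, 0.19 and 0.16.

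The median log2 fold change of the 76 genes in Trim71KO was −0.05, beside −0.00074 for all genes, −0.05 for other genes between the same length quartiles and −0.07 for the highly expressed ones among these. With the trend in deposited length removed from the counts, the median became 0.01 and the calls 3 higher and 3 lower, where 32.9% of all genes were called. With the trends in transcript length and GC content removed the calls became 15 higher and 7 lower. The direction of the calls as a whole thus moved with this adjustment. Rps12 was called under every setting tried, with fold changes from −0.31 to −0.15. The number of calls was 20 without Trim71KO replicate 3, 1 without Trim71KO replicate 1, and 2 without Trim71KO replicate 2, W replicate 2 or W replicate 3. Rpl13a lost its call without Trim71KO replicate 1 or 2 or W replicate 2 or 3 (edgeR quasi-likelihood, adjusted p up to 0.0735 over all settings).

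**Figure D4:**
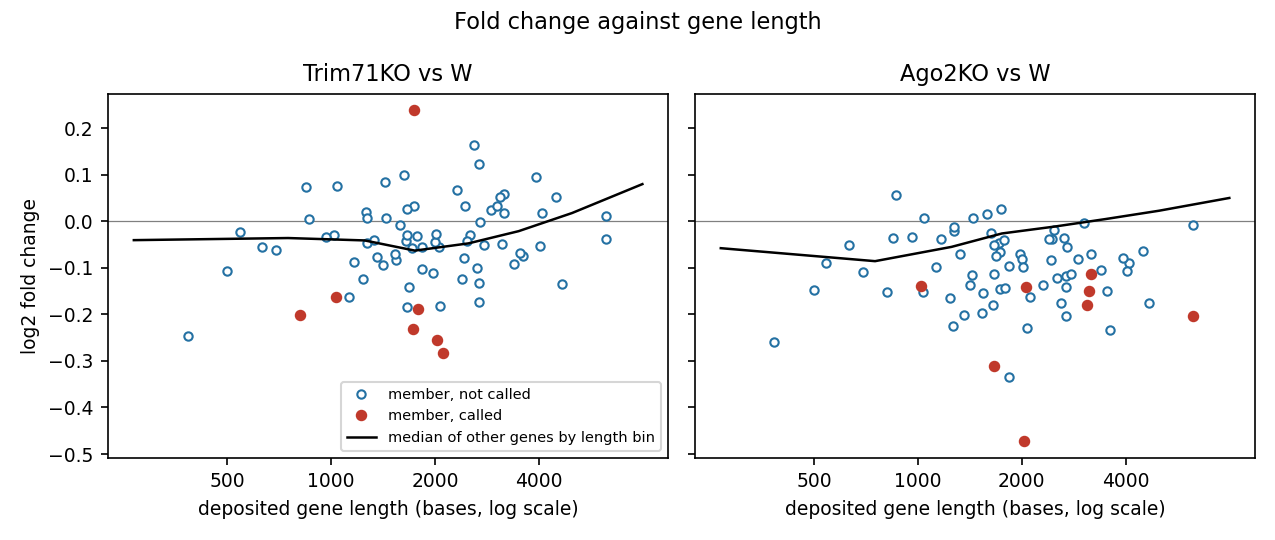
Log2 fold change of the 76 ribosomal protein genes (circles, filled where called) against their deposited length on a log axis in Trim71KO and Ago2KO against W, with the median of all other genes in length bins (line). In Trim71KO the genes scatter around the line, with the called Rps12 and Rpl13a below it, and in Ago2KO most genes lie below the line.

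Loss of Ago2 went with 8 lower and no higher calls among the ribosomal protein genes, where 18.0% of all genes tested, 15.9% of genes between the same length quartiles and 30.2% of the highly expressed ones among these were called. Rps12 fell furthest. Its 363, 345 and 361 CPM in Ago2KO stood clear of the 476, 495 and 513 CPM of W, a fall of 0.47 (SE 0.05, adjusted p 2.5e-05, edgeR quasi-likelihood). Rplp0 (ENSMUSG00000067274, chr5:115559467-115563727), the stalk base to which the P1 and P2 proteins bind, had 1158, 1231 and 1301 CPM in W and 1012, 939 and 1023 CPM in Ago2KO. It fell by 0.31 (SE 0.07, adjusted p 0.00767, edgeR quasi-likelihood), and the groups did not overlap, as in 34.2% of all genes tested. Its partners in the stalk were not called: Rplp1 had −0.15 (SE 0.08) and Rplp2 −0.23 (SE 0.13). Rps24, mutated in Diamond-Blackfan anaemia, fell by 0.20 (SE 0.06), from 780, 720 and 753 CPM to 612, 640 and 705 CPM. Rpl9, Rpl6, Rpl10, Rpl19 and Rpl3 fell by 0.18, 0.15, 0.14, 0.14 and 0.11. Rpl10 is an X-linked gene whose protein joins the 60S subunit late, and RPL3 lies near the peptidyl transferase centre.

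The median over the 76 genes was −0.11 in Ago2KO, beside −0.0029 for all genes, −0.02 for other genes between the same length quartiles and −0.11 for the highly expressed ones among these. It was −0.08 with the length trend removed and −0.06 with the transcript length and GC trends removed, where the calls were 1 higher and 7 lower. Rps12 and Rplp0 kept their calls under every setting tried, with fold changes of −0.50 to −0.39 and −0.36 to −0.27. The number of calls was 3 without Ago2KO replicate 1 or 2, 4 without W replicate 1 or 2 and 2 without W replicate 3. Rps24 lost its call without Ago2KO replicate 1 or 2 or W replicate 1 or 3, where its fold change lay between −0.20 and −0.16, and its adjusted p over all settings ran from 0.00363 to 0.0757 (edgeR quasi-likelihood and DESeq2). The fold of Rps2, whose protein is a core 40S component, was uncertain in Experiment 1. It had 553, 633 and 788 CPM in W, 583, 475 and 841 CPM in Trim71KO and 546, 409 and 611 CPM in Ago2KO, and the standard error of its fold changes was 0.27.

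T6B_WT against T6B_MUT asks what changes when the peptide occupies the GW182 site of Argonaute, and here 1 ribosomal protein gene was called. Rps2 (ENSMUSG00000044533, chr17:24718116-24721929) had 555, 526 and 559 CPM in T6B_MUT and 452, 445 and 427 CPM in T6B_WT. The groups did not overlap, as in 39.3% of all genes tested, and it fell by 0.31 (SE 0.07, adjusted p 0.00368, edgeR quasi-likelihood). The call held under every setting tried, with fold changes from −0.37 to −0.24. Over all genes 16.0% were called. Other genes between the same length quartiles were called in 17.5%, and the highly expressed ones among these in 18.8%. Rplp1 came next, with −0.29 (SE 0.10, adjusted p 0.0509, edgeR quasi-likelihood), and was not called, and Rps12 had 490, 485 and 494 CPM in T6B_MUT and 444, 431 and 421 CPM in T6B_WT, a difference of −0.18 (SE 0.06; edgeR quasi-likelihood, adjusted p 0.059). The median over the 76 genes was −0.04, against 0.0066 for all genes. Other genes between the same length quartiles had a median of −0.0081, and the highly expressed ones among these −0.02. With the transcript length and GC trends removed the median of the 76 genes was 0.01, and 3 genes were called higher and 4 lower. A fit to these 2 groups alone called 2 higher and 13 lower, and the fit without T6B_WT replicate 1 called 2 lower.

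**Figure D5:**
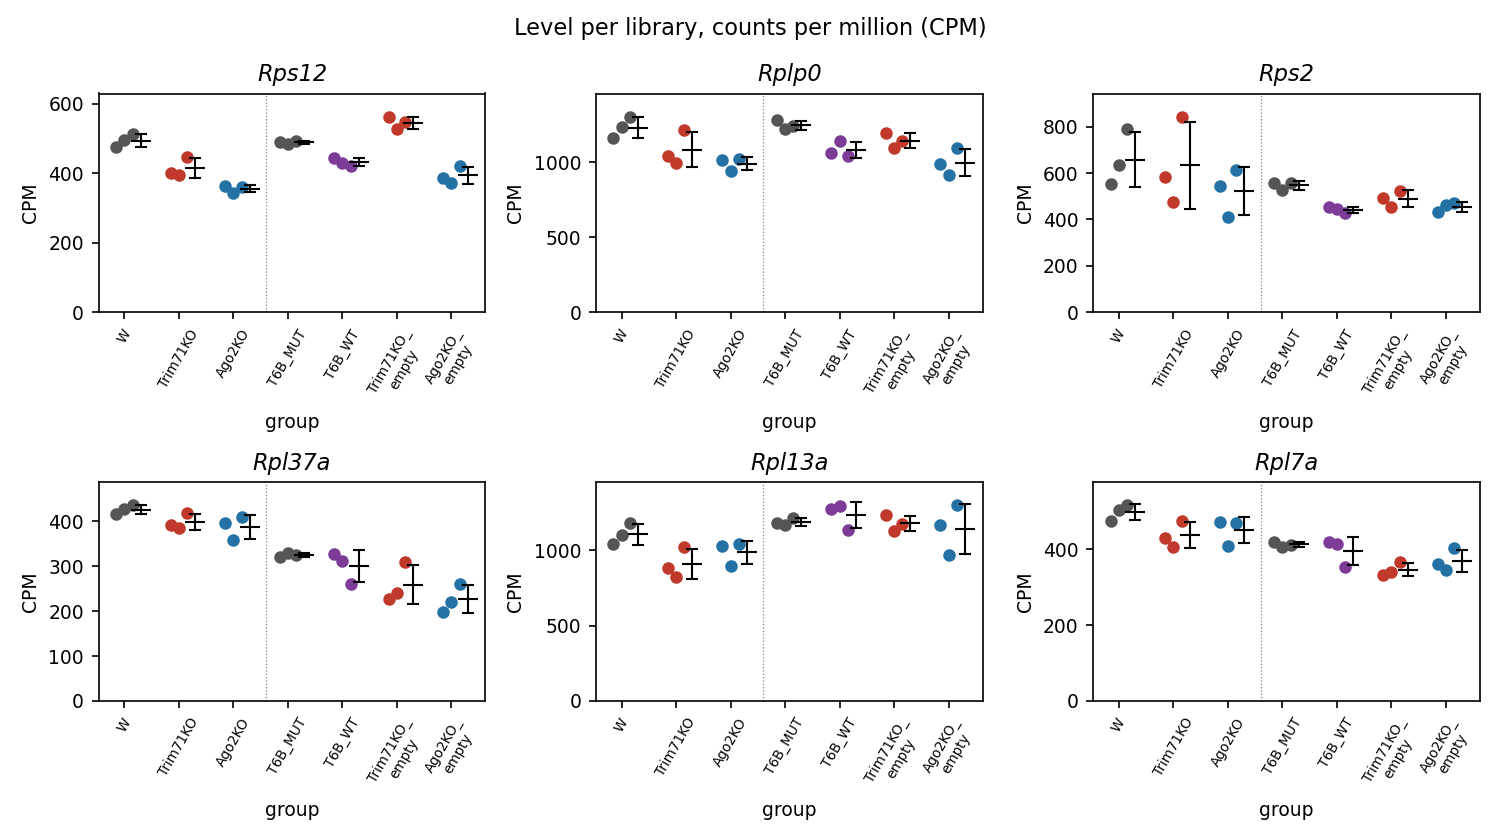
Level of 6 ribosomal protein genes in each library (points, CPM), with the mean and SD of each group (bars, n = 3); the dotted line divides Experiment 1 from Experiment 2. Rps12 is lowest in Ago2KO, at 345 to 363 CPM, and highest in Trim71KO_empty, at 529 to 562 CPM, while Rps2 spreads widely within the groups of Experiment 1.

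In Trim71KO_empty against T6B_MUT, 4 ribosomal protein genes fell and none rose, with 27.8% of all genes called. Rpl7a fell by 0.26 (SE 0.08, adjusted p 0.0169, edgeR quasi-likelihood), from 420, 407 and 412 CPM to 332, 341 and 366 CPM. Rpl36a, an X-linked 60S gene, fell by 0.25 (SE 0.09), from 262, 258 and 276 CPM to 191, 237 and 240 CPM. Rpl11, whose protein binds and inhibits MDM2 when ribosome assembly is disturbed, fell by 0.25 (SE 0.08), from 392.4 to 393.0 CPM to 298, 340 and 355 CPM. In each of the 3 genes the groups did not overlap, which was so for 45.5% of all genes tested. Rpl6 fell by 0.19 (SE 0.07). RPL5, the partner of RPL11 in that role, had 0.08 (SE 0.08) at its gene and was not called. The median over the 76 genes was −0.05, against 0.0025 for all genes and −0.16 for highly expressed genes between the same length quartiles, of which 45.2% were called. With the length trend removed 2 genes were called higher and 2 lower, where 27.9% of all genes were called. With the transcript length and GC trends removed 11 were called higher and 1 lower. No gene was called without Trim71KO_empty replicate 1 or T6B_MUT replicate 1, 1 was called without T6B_MUT replicate 2 or 3, and 2 higher and 2 lower without Trim71KO_empty replicate 2. A fit to the 2 groups alone called 1 higher and 14 lower.

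In the libraries labelled Ago2KO_empty against T6B_MUT, 6 ribosomal protein genes fell and 1 rose, with 28.8% of all genes called and 47.3% of highly expressed genes between the same length quartiles. Rpl37a (ENSMUSG00000046330, chr1:72711290-72713813), which encodes a small 60S protein with a zinc finger, fell by 0.52 (SE 0.12, adjusted p 0.00749, edgeR quasi-likelihood), from 320, 329 and 325 CPM to 198, 221 and 261 CPM. Rplp0 fell by 0.32 (SE 0.07, adjusted p 0.00275, edgeR quasi-likelihood), from 1279, 1219 and 1241 CPM to 986, 914 and 1092 CPM. Rps12 fell by 0.31 (SE 0.06, adjusted p 0.00124, edgeR quasi-likelihood), from 490, 485 and 494 CPM to 386, 373 and 422 CPM. Rplp1, Rps2 and Rpl7 fell by 0.28, 0.27 and 0.25. In these 6 genes the groups did not overlap, which was so for 42.1% of all genes tested. Rpl23, a 60S gene whose protein also binds MDM2, rose by 0.23 (SE 0.08, adjusted p 0.0346, edgeR quasi-likelihood), from 756, 701 and 806 CPM to 907, 803 and 949 CPM, and the groups overlapped. Rpl37a, Rplp0 and Rps12 were called under every setting tried, with fold changes of −0.66 to −0.43, −0.42 to −0.24 and −0.39 to −0.16. Rps2 lost its call only with the transcript length and GC trends removed, where it was −0.12. The call of Rpl23 was lost in 11 of 17 settings (edgeR quasi-likelihood and DESeq2, adjusted p 0.00287 to 0.209), among them DESeq2 and both other scalings.

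The median over the 76 genes in that group was −0.07, against 0.03 for all genes. Other genes between the same length quartiles had a median of −0.01, and the highly expressed ones among these −0.14. With the transcript length and GC trends removed the median of the 76 genes was 0.03, and 9 genes were called higher and 5 lower. It was −0.17 without replicate 3 of the libraries labelled Ago2KO_empty, where 30 genes fell and none rose. The count was 4 without their replicate 1 or without T6B_MUT replicate 1. Shares of all genes called in these fits are not given here. Of the 3 labelled libraries replicate 3 had the lowest Ago2 level (45.6 CPM) and the highest share of ribosomal protein counts (4.81%), and replicate 2 had the highest Ago2 level (166.6 CPM) and the lowest share (3.81%). A link between the Ago2 level and the share was not tested. In each group of Experiment 1 the median level of the 76 genes was likewise highest in replicate 3 and lowest in replicate 2.

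The knockouts were also compared with each other, without the control. In Experiment 1, 10 genes were higher in Trim71KO than in Ago2KO and none lower, where 34.2% of all genes were called. Rpl7, Rpl9, Rps12 and Rps24 differed by 0.26, 0.23, 0.22 and 0.21, and Rpl5, Rpl31, Rpl3, Rpsa and Rps3 by 0.11 to 0.17. Rpsa also encodes a laminin receptor and Rps3 a 40S protein with a known part in DNA repair. The median was 0.05, against 0.0071 for all genes, −0.03 for other genes between the same length quartiles and 0.04 for the highly expressed ones among these. With the length trend removed 21 genes were higher and none lower, where 36.0% of all genes were called. With the transcript length and GC trends removed 25 genes were higher and 1 lower. The count was 6 without Trim71KO replicate 1, and 8 higher and 2 lower without Trim71KO replicate 3. In Experiment 2, 6 genes were higher in Trim71KO_empty than in the libraries labelled Ago2KO_empty and 2 were lower, with 31.6% of all genes called. All 3 genes of the acidic stalk were among the higher ones, with Rplp1 at 0.26 (SE 0.10), Rplp2 at 0.21 (SE 0.07) and Rplp0 at 0.20 (SE 0.07). Rps12 differed most, by 0.47 (SE 0.06, adjusted p 1.33e-05, edgeR quasi-likelihood), followed by Rps10 at 0.27 (SE 0.09). Rpl36a and Rps6 were lower by 0.23 and 0.19, a pair no longer called under DESeq2 or either other scaling, which gave 7 higher and none lower. Without replicate 3 of the libraries labelled Ago2KO_empty 20 genes were higher and none lower, and without their replicate 2 there were 1 higher and 3 lower. Without Trim71KO_empty replicate 1 or replicate 1 of the libraries labelled Ago2KO_empty 1 gene was called, without Trim71KO_empty replicate 3 there were 2 higher and 1 lower, and a fit to the 2 groups alone called 1.

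The effects of the same lost gene in the 2 experiments were compared in a fit of all 21 libraries. For Trim71, 1 of the 76 genes differed, with 10.1% of all genes called. This was Rps12, which fell in Trim71KO (−0.25) and had 562, 529 and 547 CPM in Trim71KO_empty against 490, 485 and 494 CPM in T6B_MUT. All 3 values lay above the control, a lack of overlap found in 45.5% of all genes tested. This fold change of 0.16 (SE 0.06; edgeR quasi-likelihood, adjusted p 0.0705) was not called. The difference of the effects was −0.41 (SE 0.08, 95% interval −0.59 to −0.24, adjusted p 0.00186, edgeR quasi-likelihood) and was called under every setting tried. Without Trim71KO replicate 3 a second gene was called. For Ago2 no gene differed by edgeR's quasi-likelihood test, with 2.13% of all genes called, 3 of the 76 at an unadjusted p under 0.05 and none called by DESeq2. Without replicate 3 of the libraries labelled Ago2KO_empty 1 was called. Between the 2 Trim71 comparisons, which share no library, 1 called gene recurred (Rpl7a), which is 14.3% of the 7 and 25% of the 4. Between the 2 Ago2 comparisons Rps12 and Rplp0 recurred, 25% of the 8 and 28.6% of the 7. Over all genes tested, the calls that recurred were 47.7% of those in Trim71KO and 55.1% of those in Trim71KO_empty, and 64.3% of those in Ago2KO and 39.5% of those in the libraries labelled Ago2KO_empty. The called ribosomal protein genes thus recurred in smaller shares than called genes in general, on counts of 4 to 8 genes and with no test.

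Some members with known special roles were among the 55 of 76 genes without a call, while others, such as Rps12, Rpl13a, Rps24 and Rpl11, were called. Rps6, the S6 kinase substrate, had log2 fold changes of −0.01 in Trim71KO (SE 0.04) and 0.02 in Ago2KO (SE 0.04). Rps19, the gene most often mutated in Diamond-Blackfan anaemia, had −0.14 and −0.17 (SE 0.06 each), and Rps14, deleted in the 5q- syndrome, −0.12 and −0.04 (SE 0.06 each). Rpl38, linked to the translation of Hox mRNAs in the mouse, had −0.02 and −0.09 (SE 0.05 each), and Rpl10a −0.08 in both (SE 0.05 each). Rps27a, which encodes a ubiquitin fusion, had −0.11 and −0.07 (SE 0.07 each), and Rpl41, which encodes the smallest of these proteins, −0.09 and −0.04 (SE 0.07 each). X-linked Rps4x had 0.10 and −0.02 (SE 0.05 each). None of these genes was called in any of the 5 comparisons with a control.

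Most of these genes share sequence with processed pseudogenes, and how reads that match several places were counted is not given in the sources used here. Matched by name, 542 pseudogene rows in the table were assigned to 72 of the 76 genes. They held 37.6% to 39.7% as many counts as the genes themselves. The only row assigned to Rpl23 was Mrpl23-ps1 (mean 13.0 CPM), which is named after a mitochondrial ribosomal protein gene. The counts given here, and the fit with pseudogene counts added to Rpl23, include that row. The summed pseudogene level exceeded that of the gene for 6 genes, among them Rpl34, Rpl30, Rplp0 and Rps23. The mean was 1110 CPM for Rplp0 and 1482 CPM for its 9 pseudogene rows, of which Gm8730 alone had 530.9 CPM. Rps12 had 22 such rows and Rps2 had 52. With the pseudogene counts added to each gene, Rps12 and Rplp0 kept their calls in both Ago2 comparisons and Rps2 in T6B_WT. Levels of the separate genes remain uncertain to the extent that reads were divided between copies.

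The genes also hold small nucleolar RNAs. In the GENCODE M21 annotation 56 such RNAs lie inside 29 of the 76 genes, and 23 of the genes hold at least 1 within an annotated exon. Of the 54 with a row in the table, none had more than 2.01% of its host's level. Snora33 lies within an annotated exon of Rps12, at a mean of 2.23 CPM, and fell by 0.52 in Ago2KO (adjusted p 0.0328), by 0.53 in T6B_WT (adjusted p 0.0405) and by 0.97 in the libraries labelled Ago2KO_empty (adjusted p 0.000656, edgeR quasi-likelihood in each). It was not called in Trim71KO, at 0.0074, or in Trim71KO_empty, at 0.09 (edgeR quasi-likelihood, adjusted p 0.977 and 0.74). Snora64, within an annotated exon of Rps2, fell by 0.46 in T6B_WT and by 0.50 in the libraries labelled Ago2KO_empty, and rose by 0.46 in Trim71KO, and was not called in Ago2KO (0.09) or Trim71KO_empty (0.19). Over all of these RNAs that were tested, 3 of 53 rose in Trim71KO and 1 of 53 fell in Ago2KO. In Experiment 2, of 52 tested, 2 fell in T6B_WT, 5 rose and 1 fell in Trim71KO_empty, and 5 fell in the libraries labelled Ago2KO_empty. Of all genes tested, 32.6%, 18.0%, 16.0%, 27.8% and 28.8% were called in the same order of comparisons. Many of these RNAs averaged under 1 CPM, such as Snord58b at 0.22 CPM. Reads of these RNAs and of their hosts overlap in position, so the rows of the pair are not independent. Apart from small RNA genes recognised by name and length, 21 of the 76 genes overlap a gene on the opposite strand and 6 one on the same strand. The same-strand count includes AF357399 in Rps16, which is itself among the small nucleolar RNAs above. Rps2 and Rpl13a are among the genes with such a neighbour, Snhg9 and Gm45713.

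Components of the ribosome outside the naming rule were looked at as well. Fau, which encodes RPS30 fused to a ubiquitin-like protein, fell by 0.27 in the libraries labelled Ago2KO_empty (SE 0.09, adjusted p 0.0289, edgeR quasi-likelihood). Rps3a1 had −0.09 to 0.02 and Rack1, a scaffold on the 40S subunit, −0.11 to 0.08 over these 5 comparisons.

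Paralogs of ribosomal proteins, some of them restricted to few tissues, were followed beside their partners. Of 11 tested, 2 rose and 3 fell in Trim71KO, 2 rose and 4 fell in Ago2KO, 3 fell in T6B_WT, 2 rose and 3 fell in Trim71KO_empty, and 3 rose and 2 fell in the libraries labelled Ago2KO_empty. The called shares of this list were 45.45%, 54.55%, 27.27%, 45.45% and 45.45% in that order. Those of all genes tested were 32.6%, 18.0%, 16.0%, 27.8% and 28.8%, and the difference was not tested. Rpl39l encodes a paralog of RPL39 best known from the testis. It had 64.1, 63.7 and 62.3 CPM in W and 24.4, 23.4 and 25.1 CPM in Trim71KO, a fall of 1.38 (SE 0.05, adjusted p 1.77e-10, edgeR quasi-likelihood), and it fell by 1.07 (SE 0.08) in Trim71KO_empty. In Ago2KO it rose by 0.41 (SE 0.05), to 83.3 to 84.4 CPM, and in the libraries labelled Ago2KO_empty by 0.30 (SE 0.08). Rpl39 itself was called in none of these 4, with 0.08 (SE 0.10) in Trim71KO and −0.12 (SE 0.10) in Ago2KO. Rpl10l, an autosomal retrogene of X-linked Rpl10, rose by 0.37 in Trim71KO, 0.49 in Ago2KO, 0.97 in Trim71KO_empty and 0.69 in the libraries labelled Ago2KO_empty. Rpl22l1, the paralog of Rpl22, rose by 0.58 in Trim71KO and 0.30 in Trim71KO_empty. It fell by 0.25 in Ago2KO, 0.31 in T6B_WT and 0.26 in the libraries labelled Ago2KO_empty, whereas Rpl22 was called in none of the 5 comparisons. By counts Rpl10l, at 42.2 CPM in W, stood far below Rpl10, at 407 CPM.

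Other genes of ribosome production and translation were counted in the same way, in lists chosen with earlier results of these data known. The counts of each list are to be read beside the shares of all genes called, which were 32.6% in Trim71KO, 18.0% in Ago2KO, 16.0% in T6B_WT, 27.8% in Trim71KO_empty and 28.8% in the libraries labelled Ago2KO_empty. Of 79 mitochondrial ribosomal protein genes, 28 fell and 2 rose in Trim71KO, 21 fell in Ago2KO, 23 fell in T6B_WT, 26 fell and 1 rose in Trim71KO_empty, and 38 fell in the libraries labelled Ago2KO_empty, with medians of −0.15, −0.15, −0.16, −0.15 and −0.19. The called share of this list was 38.0%, 26.6%, 29.1%, 34.2% and 48.1% in that order. Mrps6 fell by 0.49 in Trim71KO (SE 0.07) and Mrpl33 by 0.53 in T6B_WT (SE 0.07). Of 117 ribosome biogenesis factors, 52 fell and 5 rose in Trim71KO, 46 fell and none rose in Ago2KO, 21 fell and none rose in T6B_WT, 36 fell and 1 rose in Trim71KO_empty, and 46 fell and 1 rose in the libraries labelled Ago2KO_empty, with medians of −0.13 to −0.11. Their called shares were 48.7%, 39.3%, 17.9%, 31.6% and 40.2%. Ddx21, a nucleolar RNA helicase, fell by 0.53 in Trim71KO (SE 0.04, adjusted p 2.98e-07) and by 0.63 in Ago2KO (SE 0.04, adjusted p 1.87e-07, edgeR quasi-likelihood in both). In each of these comparisons the medians of both lists lay below that of the 76 ribosomal protein genes, a difference that was not tested.

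Of 20 genes of RNA polymerase I and its factors, which make the ribosomal RNA, 5 fell and 1 rose in Trim71KO, 5 fell in Ago2KO, 5 in T6B_WT and 2 in Trim71KO_empty, and 7 fell and 2 rose in the libraries labelled Ago2KO_empty. Of 14 chaperones and importins that escort ribosomal proteins, 5 fell and 3 rose in Trim71KO, 1 fell and 1 rose in Ago2KO, 3 fell in T6B_WT, 1 fell in Trim71KO_empty, and 5 fell and 1 rose in the libraries labelled Ago2KO_empty. Of 38 initiation factors, 15 fell and 6 rose in Trim71KO, 16 fell in Ago2KO, 6 in T6B_WT, 9 fell and 2 rose in Trim71KO_empty, and 15 fell and 2 rose in the libraries labelled Ago2KO_empty. Of 22 elongation factors and other genes whose mRNAs carry a TOP motif, 4 rose and 4 fell in Trim71KO, 1 rose and 8 fell in Ago2KO, 1 rose and 2 fell in T6B_WT, 7 fell in Trim71KO_empty, and 2 rose and 6 fell in the libraries labelled Ago2KO_empty. Eef1a1, the elongation factor that delivers aminoacyl-tRNA, rose by 0.27 in Trim71KO (SE 0.04, adjusted p 8.31e-05, edgeR quasi-likelihood), and Eef1d and Pabpc1 fell by 0.28 and 0.24 in Ago2KO.

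Of 18 host genes of small nucleolar RNAs that are not ribosomal protein genes, 7 rose in Trim71KO, led by Gas5 at 0.38 (SE 0.07), 2 fell in Ago2KO, 4 fell in T6B_WT, 8 rose and 1 fell in Trim71KO_empty, and 3 fell in the libraries labelled Ago2KO_empty. Of 24 regulators of growth and of the translation of these mRNAs, 2 rose and 7 fell in Trim71KO, 1 rose and 2 fell in Ago2KO, 2 rose and 2 fell in T6B_WT, 3 rose and 4 fell in Trim71KO_empty, and 3 rose in the libraries labelled Ago2KO_empty. Myc, which drives ribosome production, fell by 0.57 in Trim71KO (SE 0.10), 0.51 in Ago2KO (SE 0.10) and 0.68 in T6B_WT (SE 0.12). Mycn, of the same list, rose by 0.47 in T6B_WT (SE 0.08) and by 0.46 in the libraries labelled Ago2KO_empty (SE 0.08). It fell by 0.40 in Trim71KO_empty (SE 0.08). In T6B_MUT, Mycn had a mean of 46.0 CPM and Myc one of 14.2 CPM. Pdcd4, an inhibitor of the initiation helicase eIF4A, rose by 0.48 in Ago2KO (SE 0.07) and 0.60 in T6B_WT (SE 0.08).

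For comparison with housekeeping genes, of up to 84 nuclear genes of oxidative phosphorylation, which are about as short (median 1465 bases for those tested in Experiment 1), 14 rose and 7 fell in Trim71KO, 2 rose and 11 fell in Ago2KO, 3 fell in T6B_WT, 3 rose and 21 fell in Trim71KO_empty, and 2 rose and 37 fell in the libraries labelled Ago2KO_empty. Of 37 proteasome genes, 2 rose and 15 fell, 10 fell, 6 fell, 16 fell, and 1 rose and 24 fell in the same order. Of up to 11 mitochondrially encoded genes tested, mostly transfer RNAs, 1 rose in Trim71KO, 4 in Trim71KO_empty and 1 in the libraries labelled Ago2KO_empty. Differences between these lists and the ribosomal protein genes were not tested.

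Across the 21 libraries, with each experiment centred on its own mean, the ribosomal protein genes varied together. The correlation of a gene with the mean of the 76 had a median of r = 0.71 and exceeded 0.5 in 61 genes. Rpl18 followed the mean most closely (r = 0.90), and Rps16 (r = 0.13), Rpl30 (r = 0.23) and Rpl23 (r = 0.25) least. Rps12 had 0.58 and Rplp0 0.81. Each gene is part of that mean, and all points share library and depth, so these values describe the libraries only. Among 20512 other genes the pseudogenes AC121967.1 (r = 0.91), Rpl10a-ps1 (0.88) and Rpl19-ps11 (0.88), the ribosomal component Fau (0.88) and Ndufb8 (0.88), a subunit of respiratory complex I, were most like the mean.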

How the data were processed

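Total RNA of 21 mouse embryonic stem cell samples was sequenced, from stranded libraries per the labels' protocols. The submitters' processing notes name bcl2fastq 2.17, STAR 2.7.3a and GRCm38/mm10. The counter, annotation and strand setting are not given in the sources used here. The deposited table holds raw counts per gene and the authors' RPKM, whose gene length is the union of GENCODE M21 exons for all 76 members. RPKM served for levels only. Counts were filtered (filterByExpr, minimum count 10), scaled by TMM and tested with edgeR 4.0.16 (quasi-likelihood, robust; R 4.3.3) in each experiment apart, and over all 21 libraries for differences between experiments, with Benjamini-Hochberg adjustment over all genes tested. CPM were computed here. Python 3.11.15 with pandas 2.3.3 and numpy 2.4.6 made the summaries. The fits were tested on simulated data with a uniform spread and with changes larger than most calls of the members. That test therefore does not bear on calls as small as most of those here. Totals of 29561125 to 57872324 counts gave every member at least 767 counts per library.

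Members, gene lists and marker lists were chosen with earlier results of these data known. Named in the text are the 3 called members with the largest increase and decrease per comparison with a control. A set of members with known roles and the 3 highest and 3 lowest by RPKM are named too. Further named are up to 3 called genes per list and comparison, and the 5 genes most like the members' mean. Members on a chromosome whose genes shift as a whole by over 0.2 were to be named, but no chromosome met that rule. The largest median shift of other genes was 0.19, on chromosome 8 in Trim71KO against W. Other called members were named after their values were seen, as were Rps16, Rpl30, Rpl23 and Rpl18 for their correlations. Same-numbered replicates deviated together with r from −0.39 to 0.38, over 0.1 in all 3 pairs in 0 of 7 comparisons. The main fits therefore did not pair the samples. In each group of Experiment 1 the 76 genes' median log2 deviation from the experiment's mean was highest in replicate 3 and lowest in replicate 2. These were 0.08 and 0.03 in W, 0.07 and −0.06 in Trim71KO, and 0.01 and −0.10 in Ago2KO. The same order held in Experiment 2 except in T6B_WT, where replicate 3 was lowest (−0.09). Whether same-numbered libraries share an effect on these genes was not tested. Alternatives were DESeq2 1.42.0, other scalings, no filter, length and GC trends removed, pseudogene counts added, 2 groups alone, a replicate block and each replicate left out. Removal of the transcript length and GC trends, the addition of pseudogene counts and the comparison with highly expressed genes of like length were chosen after seeing the data. Results for some genes are not reported here.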

Additional observations from a re-analysis of the deposited data

Results flagged for a closer look

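The effect of Trim71 loss on Rps12 differed between the experiments by −0.41 on the log2 scale (Experiment 1 minus Experiment 2; SE 0.08, adjusted p 0.00186, edgeR quasi-likelihood on all 21 libraries). A difference of the Trim71 effects was called for 10.1% of all genes tested. The log2 fold change of Rps12 was −0.25 in Trim71KO against W, lower in 3 of 3 libraries. It was 0.16 in Trim71KO_empty against T6B_MUT, higher in 3 of 3 libraries, and was not called there. Of all genes tested, 44.3% and 45.5% had no overlap between the groups, in the same order of comparisons. Over 22 other settings the difference ran from −0.47 to −0.38, with adjusted p from 4.46e-06 to 0.009. The control carries another plasmid than the knockout in Experiment 2 only, so that plasmid and experiment cannot be told apart.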

How the results depend on the processing

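Calls rested on small differences, and their number moved with the setting. With the transcript length and GC trends removed, the calls were 22 in Trim71KO against W, 26 between the knockouts of Experiment 1, 7 in T6B_WT, 12 in Trim71KO_empty, 14 in the libraries labelled Ago2KO_empty, 16 between the knockouts of Experiment 2, and 3 and 5 in the differences of the Trim71 and Ago2 effects. With the length trend removed they were 21 between the knockouts of Experiment 1, 2 in T6B_WT and 2 in the Trim71 difference. Of all genes tested, 36.0%, 17.1% and 11.3% were called under that setting, in the same order. Shares of all genes called under the other settings are not given here. Upper-quartile scaling gave 11 in Trim71KO and 14 in Ago2KO, DESeq2 gave 3 in T6B_WT, and added pseudogene counts gave 3 there. Fits to 2 groups alone gave 15 in T6B_WT, 15 in Trim71KO_empty and 1 between the knockouts of Experiment 2. With each replicate left out in turn the counts ran from 1 to 20 in Trim71KO, 2 to 11 in Ago2KO, 6 to 13 between the knockouts of Experiment 1, 1 to 2 in T6B_WT, 0 to 6 in Trim71KO_empty, 4 to 30 in the libraries labelled Ago2KO_empty, 1 to 20 between the knockouts of Experiment 2, 1 to 2 in the Trim71 difference and 0 to 1 in the Ago2 difference. The replicate block gave 14 in Trim71KO, 17 in Ago2KO and 2 in T6B_WT, and with the length trend removed 14 in Ago2KO, 24 between the knockouts of Experiment 1 and 2 in T6B_WT. Replicates are known to share only a number, and of 6 libraries 0 to 4 correlated best with their own number. In Experiment 1 the median level of the ribosomal protein genes had the same order by replicate number in each group. The cause of these shifts was not tested.

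The median fold change of the 76 genes moved by less than the spread between replicates in 155 of 163 settings and by more in 8. That spread, a mean SD of 0.06, was larger than most of the medians themselves, so smaller moves could still change their sign. Over the settings the median kept its sign only in Ago2KO against W (−0.13 to −0.06) and in Trim71KO against Ago2KO (0.02 to 0.09). It ran from −0.08 to 0.02 in Trim71KO against W. No call of a named gene changed direction under the settings tried. Counts this deep leave the spread between replicates, not counting error, as the limit.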
